A study of Homo sapiens with 42 samples.

Results

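The 36 genes described here are targets and effectors of the cellular responses to amino acid shortage and to unfolded protein in the endoplasmic reticulum. They were taken by gene symbol from a list of 36, out of 58869 genes in the count table, and all 36 had enough counts to be tested in both cell lines. By role they fell into stress transcription factors and their feedback genes (10 members), enzymes of serine, glycine and one-carbon synthesis (6), other amino acid and related enzymes (5), amino acid transporters (8), translation (2) and the unfolded protein response (5). Polyadenylated RNA was sequenced from NOMO1, an acute myeloid leukaemia line labelled KMT2A-rearranged, and from OCI-AML3, an acute myeloid leukaemia line labelled NPM1c+, and every comparison below is of RNA counts. The 42 libraries form 7 groups of 3 in each line. Cells received both drugs together (sampled on days 3 and 6), VTP-50469 alone at 100 nM (days 3 and 6), selumetinib alone at 100 nM, or only the solvent DMSO (days 3 and 6). VTP-50469 inhibits menin, a cofactor that KMT2A complexes need on chromatin, and selumetinib inhibits MEK, which phosphorylates ERK. The design thus asks how blocking either or both changes leukaemia cells. Selumetinib alone lasted 1 day by the protocol, but the titles of its replicates 2 and 3 name day 3. Its time is therefore uncertain, and it was set against DMSO at day 3. The labels write the inhibitor as VTP-50469 in the protocol and as VTP-50649 in the titles, and the first is used here. Its duration within the combination is not stated. Each line is 1 cell line, and whether replicates were grown apart is not stated, so p-values measure the spread between these libraries, which may be technical.

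As background, cells that lack amino acids, or whose endoplasmic reticulum fills with unfolded protein, phosphorylate the translation factor eIF2, which slows protein synthesis as a whole while favouring translation of the transcription factor ATF4. ATF4 then switches on amino acid transporters, enzymes that make serine, glycine, asparagine, proline and cysteine, and its own feedback genes. A separate arm, run through the transcription factors XBP1 and ATF6, raises chaperones of the endoplasmic reticulum such as HSPA5. Leukaemia cells divide fast and many depend on imported amino acids, and ERK signalling feeds into growth and protein synthesis. Counts per gene do not show translation of ATF4 or splicing of XBP1 RNA.

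The promoters shown first are those of genes on which the results below turn, to show which carry an exact spelling of the element linked to each arm. RefSeq lists a promoter window (250 bases before to 50 bases after the start, build GRCh38.p14) for 29 of the 36 members, and none was matched for NUPR1, PSPH, SHMT2, ALDH1L2, PYCR1, SLC7A11 and EIF4EBP1. A search of both strands for TGATGNAA, the core of the composite site bound by C/EBP and ATF proteins, found it in 8 of the 41 windows of members and in 3.62% of all 35116 windows of the same length. The element for endoplasmic reticulum stress, spelled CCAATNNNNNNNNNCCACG, was found in 2 of the 41 windows, those of HSPA5 and XBP1, and in 0.0769% of all windows. The search covers these exact spellings in the letters of these windows and nothing beyond them. Variant spellings were not searched for, so a window without a match may still hold a variant of either element. A match is not evidence of binding. The sequences run 5′ to 3′ along each gene, and capitals mark the match to either element. The core lies in the windows of ASNS (chr7:97872359-97872658, - strand), CHAC1 (chr15:40953221-40953520, + strand) and HERPUD1 (chr16:56931892-56932191, + strand), and the second element in that of HSPA5 (chr9:125241294-125241593, - strand). Neither string is present in the windows of DDIT3 (chr12:57520465-57520764, - strand) and TRIB3 (chr20:381045-381344, + strand).
ASNS: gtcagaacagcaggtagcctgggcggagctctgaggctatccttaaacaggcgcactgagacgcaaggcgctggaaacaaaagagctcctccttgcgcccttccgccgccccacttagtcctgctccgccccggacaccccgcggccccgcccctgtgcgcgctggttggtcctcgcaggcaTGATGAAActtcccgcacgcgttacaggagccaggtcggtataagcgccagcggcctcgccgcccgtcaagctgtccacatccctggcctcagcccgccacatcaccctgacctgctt
CHAC1: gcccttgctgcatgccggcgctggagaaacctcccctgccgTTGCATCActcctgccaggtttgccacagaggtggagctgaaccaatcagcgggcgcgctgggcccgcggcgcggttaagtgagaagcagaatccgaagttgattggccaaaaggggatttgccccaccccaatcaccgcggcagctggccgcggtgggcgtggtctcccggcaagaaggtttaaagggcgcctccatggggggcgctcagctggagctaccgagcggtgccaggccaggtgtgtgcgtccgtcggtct
HERPUD1: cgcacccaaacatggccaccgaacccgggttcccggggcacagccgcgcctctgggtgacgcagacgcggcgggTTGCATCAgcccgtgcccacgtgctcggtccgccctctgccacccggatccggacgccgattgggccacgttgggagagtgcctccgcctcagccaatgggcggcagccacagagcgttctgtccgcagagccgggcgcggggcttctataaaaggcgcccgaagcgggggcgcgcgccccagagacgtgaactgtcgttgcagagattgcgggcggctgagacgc
HSPA5: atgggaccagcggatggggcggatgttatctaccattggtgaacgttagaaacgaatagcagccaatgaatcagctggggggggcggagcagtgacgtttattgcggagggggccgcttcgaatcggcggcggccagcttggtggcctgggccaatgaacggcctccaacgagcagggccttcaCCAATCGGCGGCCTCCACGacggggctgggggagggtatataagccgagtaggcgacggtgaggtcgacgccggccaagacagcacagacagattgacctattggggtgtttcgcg
DDIT3: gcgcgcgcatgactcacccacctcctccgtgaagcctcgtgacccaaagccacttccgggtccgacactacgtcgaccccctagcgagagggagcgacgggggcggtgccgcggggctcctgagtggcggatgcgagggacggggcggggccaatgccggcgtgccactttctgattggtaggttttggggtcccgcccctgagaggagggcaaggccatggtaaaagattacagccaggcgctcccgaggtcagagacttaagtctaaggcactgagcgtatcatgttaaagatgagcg
TRIB3: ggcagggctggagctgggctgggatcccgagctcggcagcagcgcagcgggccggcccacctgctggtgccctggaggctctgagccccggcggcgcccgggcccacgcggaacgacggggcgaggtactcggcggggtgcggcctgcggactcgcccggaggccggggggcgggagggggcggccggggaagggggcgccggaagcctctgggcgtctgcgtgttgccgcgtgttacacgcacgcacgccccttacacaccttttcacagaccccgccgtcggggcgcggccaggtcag
The other windows with the core belong to ATF3, SLC1A4, SLC1A5, SLC3A2 and SLC7A1.

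NOMO1 libraries held 15264862 to 29168628 counts each, and OCI-AML3 libraries 15561248 to 24262960. Levels are CPM (counts scaled to a common library size) on TMM-scaled totals of a line. Those of cell type markers, here and below, are instead CPM on plain library totals, which include mitochondrial counts. All 8 markers of myeloid identity exceeded 1 CPM in at least 1 group of each line, MPO in OCI-AML3 lying between 0.606 and 2.49 CPM. Summed CPM of the 6 erythroid markers stayed at or below 0.306 in NOMO1 and 0.0343 in OCI-AML3 groups. The members together took 0.326 ± 0.0203% of all counts in the NOMO1 combination at day 6, 0.425 ± 0.0151% with VTP-50469 and 0.354 ± 0.0115% in DMSO (SD, n = 3). In OCI-AML3 at day 6 they took 0.276 ± 0.0123% in the combination and 0.73 ± 0.0741% with VTP-50469, against 1.23 ± 0.00887% in DMSO. Beside these shares, mitochondrial transcripts took 12.3 ± 2.27% of counts in the OCI-AML3 combination at day 6 and 3.24 ± 0.665% in its DMSO group. In NOMO1 DMSO they took 3.17 ± 0.481% at day 6, against 17.8 ± 0.197% at day 3. The part of this in the members' changes was not tested beyond a fit without mitochondrial genes, which kept every call of the members named. In a bulk sample, fewer cells that express a gene and less RNA of it per cell cannot be told apart.

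In these genes, 4 libraries stood apart from their groups, as the plot of libraries against their group shows. In NOMO1 with VTP-50469 at day 3, replicate 1 was the highest of its group in 28 of 36 members, against 40.3% of all genes tested, with a median log2 ratio to its partners of 0.96 over members and -0.02 over all genes. In OCI-AML3 with VTP-50469 at day 3, replicate 2 was the lowest in 34 members, against 39.3% of all genes, with a median of -0.32. OCI-AML3 selumetinib replicate 1, whose title names day 1 where those of its partners name day 3, was the highest in 32 members, against 36.3% of all genes, with a median of 0.49. The titles of NOMO1 selumetinib differ in the same way, and there replicate 1 was the highest in 5 members, with a median of -0.09. The part of the day was not tested. OCI-AML3 VTP-50469 day 6 replicate 2 was the highest in 34 members, against 35.8% of all genes, with a median of 0.28. Close to these came NOMO1 selumetinib replicate 3, the highest in 26 members, against 35.9% of all genes, with a median of 0.24. Part of the values that rest on the 4 libraries that stood apart are given below with and without them. Those of NOMO1 VTP-50469 at day 3 against DMSO at day 6 are given only with every library. Counts of members in fits that leave out a library are given without the share of all genes called in that fit.

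**Figure D1:**
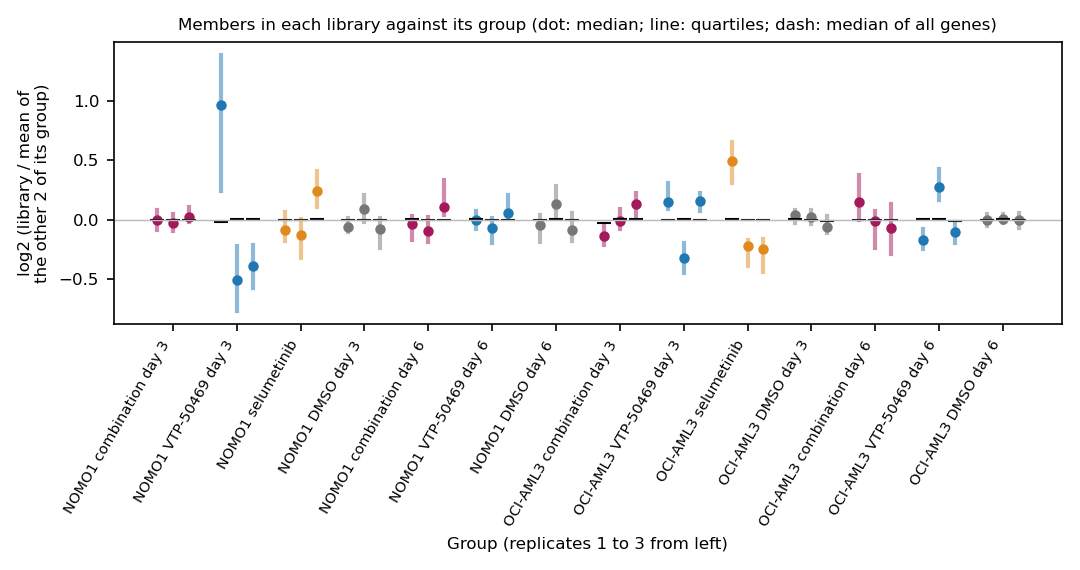
For each library (x axis, 14 groups with replicates 1 to 3 from left), the dot is the median over the 36 members of the log2 ratio of its CPM to the mean of the other 2 libraries of its group (y axis), the thick line spans the quartiles and the dash is the median over all genes tested. Most dots lie near 0, while NOMO1 VTP-50469 day 3 replicate 1 stands at 0.96 with its partners, measured against it in part, at -0.51 and -0.39, OCI-AML3 selumetinib replicate 1 at 0.49 and OCI-AML3 VTP-50469 day 3 replicate 2 at -0.32.

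Without drug, most of these genes were far lower in NOMO1 than in OCI-AML3. In DMSO at day 6, 33 of 36 members were lower in NOMO1 and 2 were higher (edgeR quasi-likelihood F test, Benjamini-Hochberg adjusted over all genes tested, threshold 0.05, used for every call below), with a median log2 fold change of -1.87. Over all 18707 genes of that fit, 28.6% were lower and 32.7% higher. Per kilobase of exon, the order of levels differed too. In NOMO1 DMSO at day 6 the chaperone gene HSPA5 led with 163 ± 3.85 CPM per kb (SD, n = 3), ahead of EIF4EBP1, a repressor of translation initiation, at 108 ± 5.37 and ATF4 at 105 ± 9.89, which did not differ beyond their spread. In OCI-AML3 DMSO at day 6 ATF4 led with 486 ± 14.7 CPM per kb, followed by PSAT1 at 338 ± 4.76, the leucine transporter gene SLC7A5 at 338 ± 4.93 and EIF4EBP1 at 336 ± 19.4, and the last 3 of these overlapped.

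The mitochondrial folate enzyme gene ALDH1L2 differed most between the untreated lines, at 3.12, 3.94 and 2.46 CPM in NOMO1 against 321, 325 and 300.1 CPM in OCI-AML3 (log2 fold change -6.24 ± 0.33, SE, from the fit of both lines, adjusted p = 1.84e-16). SLC6A9, the glycine transporter gene, differed by -4.41 ± 0.44, CHAC1, which encodes an enzyme that breaks down glutathione, by -4.36 ± 0.38, and SLC7A11, the cystine importer gene, by -4.35 ± 0.30. HSPA5 (0.65 ± 0.09, adjusted p = 1e-07) and SDF2L1 (1.76 ± 0.14, adjusted p = 3.89e-15), which both serve protein folding in the endoplasmic reticulum, were the 2 members higher in NOMO1. The proline enzyme gene ALDH18A1 was the member without a call, at -0.14 ± 0.10 (adjusted p = 0.227). CPM set side by side across the lines here use totals scaled within each line.

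In OCI-AML3 almost the whole set was lower under every treatment but the early one with the menin inhibitor. In the combination at day 6, 34 of 36 members were lower than in DMSO and 0 higher (0 also at an unadjusted p under 0.05 and by DESeq2), with a median log2 fold change of -2.23, while 26.5% of all 16384 genes tested were lower and 23.1% higher. At day 3 of the combination 35 were lower and 0 higher (0 by the same checks; median -2.12), against 25.8% and 22.3% of all genes. Selumetinib alone lowered 34 and raised 0 (0 by the same checks; median -1.22), against 15.6% and 11.7% of all genes. VTP-50469 alone lowered 28 members at day 6 and raised 1 (median -0.78), against 16% and 18.8% of all genes. At day 3 it lowered 1 and raised 0 (0 also at an unadjusted p under 0.05 and by DESeq2; median -0.13), against 4.42% and 6.49%. Over all genes tested, the median log2 fold change lay between 0.00 and 0.03 in these 5 comparisons. The comparisons at day 3 share their DMSO libraries and so do those at day 6, so they are not independent. Between the DMSO groups of day 6 and day 3 edgeR called 0 of 36 members (0 at an unadjusted p under 0.05, 0 by DESeq2) and 0 genes in all, 0% higher and 0% lower (174 at an unadjusted p under 0.05, 1 by DESeq2).

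**Figure D2:**
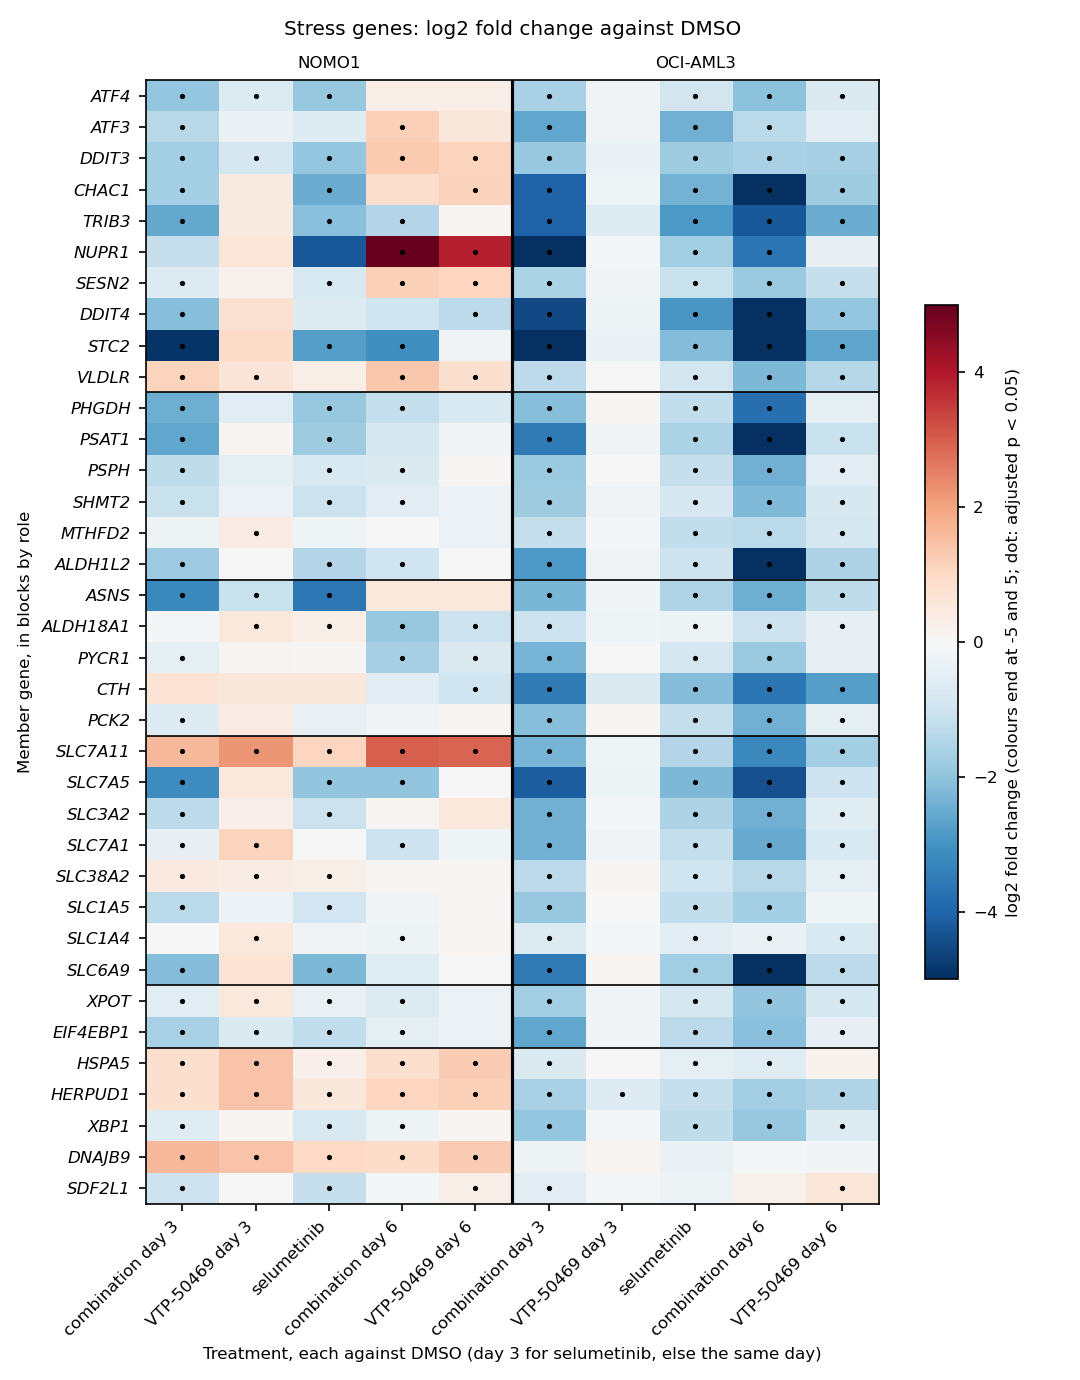
Colour gives the log2 fold change against DMSO (scale ending at -5 and 5) of each member (rows, in blocks by role from stress factors at the top to the unfolded protein response at the bottom) in 5 treatments of NOMO1 (left) and OCI-AML3 (right), and a dot marks an adjusted p under 0.05. The OCI-AML3 side is blue nearly throughout, except under VTP-50469 at day 3, while NOMO1 mixes rises and falls.

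The transcription factors and feedback genes of the response fell in OCI-AML3 under the combination, by a median log2 fold change of -2.95 at day 6 with 10 of 10 lower. ATF4, the factor at the head of the programme, had 309, 293 and 285 CPM in the combination at day 6, against 1259, 1226 and 1185 CPM in DMSO. All 3 combination libraries lay below all 3 DMSO libraries (-2.05 ± 0.11, adjusted p = 1.19e-13). With VTP-50469 alone at day 6 its level was 667, 842 and 701 CPM, between both groups and overlapping neither (-0.73 ± 0.10, adjusted p = 4.79e-06). TRIB3, a pseudokinase induced by ATF4 that restrains it in turn, had 16.9, 22.8 and 21.5 CPM in the combination at day 6, against 371, 381 and 395 CPM in DMSO. These groups lay far apart (-4.23 ± 0.29, adjusted p = 7.49e-09). TRIB3 was also lower with VTP-50469 at day 6, at 61.3, 78.3 and 66.2 CPM (-2.48 ± 0.26, adjusted p = 2.03e-06). With selumetinib it stood at 66.9, 46.8 and 41.7 CPM against 403, 370.1 and 373 CPM in DMSO at day 3 (-2.88 ± 0.26, adjusted p = 8.44e-07). CHAC1 had 4.12, 2.38 and 1.9 CPM in the combination at day 6, against 115, 112 and 114 CPM in DMSO, with no overlap (-5.34 ± 0.34, adjusted p = 2.22e-09). DDIT4, which encodes a brake on the growth kinase mTORC1, had 6.48, 7.91 and 8.15 CPM in the combination at day 6, against 241, 247 and 271 CPM in DMSO (-5.07 ± 0.34, adjusted p = 6.34e-09). STC2, a secreted glycoprotein of stressed cells, showed the largest change of any member, with 1.44, 0.514 and 0.758 CPM in the combination at day 6, against 174, 169 and 158 CPM in DMSO (-7.53 ± 0.62, adjusted p = 6.95e-08).

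DDIT3, which encodes the death-promoting factor CHOP, fell with both treatments. It had 9.03, 14 and 18.5 CPM in the combination at day 6, 12.8, 15.5 and 12.5 CPM with VTP-50469 and 41.1, 42.5 and 45 CPM in DMSO. Both treated groups lay below DMSO (-1.63 ± 0.31, adjusted p = 0.000273 for the combination and -1.66 ± 0.30, adjusted p = 0.000362 for VTP-50469) and overlapped each other (combination over VTP-50469 0.03 ± 0.31, adjusted p = 0.954). ATF3, another stress factor, had 1.29, 1.58 and 1.64 CPM in the combination at day 3 and 1.64, 2.43 and 1.11 CPM with selumetinib, against 9.39, 9.72 and 8.02 CPM in DMSO at day 3 (-2.41 ± 0.27, adjusted p = 6.66e-08 with selumetinib). SESN2, a leucine sensor that restrains mTORC1, and VLDLR, a lipoprotein receptor, fell in all but the early VTP-50469 comparison, with log2 fold changes of -1.86 and -2.25 in the combination at day 6. NUPR1, a small stress-induced nuclear protein, was low throughout, at 0, 0 and 0.199 CPM in the combination at day 3 against 4.1, 4.68 and 3.12 CPM in DMSO. Of the exon bases of DDIT3 31.6%, and of those of DDIT4 41.2%, lie opposite exons of another gene, and with unstranded reads their counts cannot be told apart from it.

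**Figure D3:**
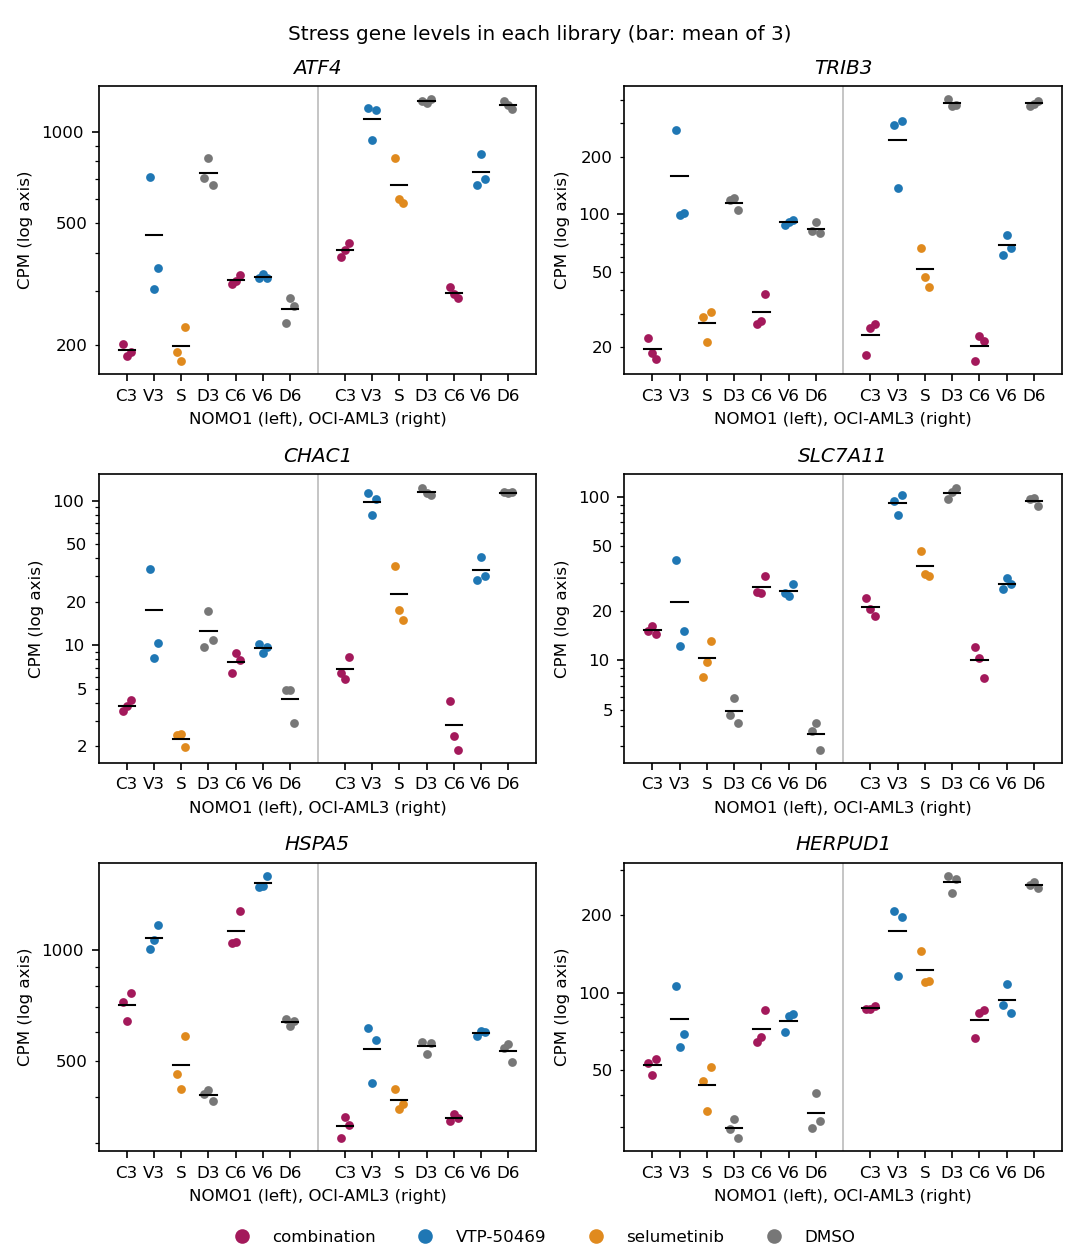
Each dot is the CPM of 1 library (log y axis) and each bar the mean of 3, for 6 members in NOMO1 (left of the line) and OCI-AML3 (right); C, V, S and D stand for the combination, VTP-50469, selumetinib and DMSO, with the day. In OCI-AML3 TRIB3 lies at 16.9, 22.8 and 21.5 CPM in the combination at day 6, below every DMSO library, while in NOMO1 SLC7A11 and HSPA5 lie above DMSO under VTP-50469 and the combination at day 6.

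The serine pathway fell together in OCI-AML3. All 6 genes of serine, glycine and one-carbon synthesis were lower in the combination at day 6 (median -3.09) and at day 3 (6 of 6, median -1.99), 6 were lower with selumetinib (median -1.18) and 5 with VTP-50469 at day 6 (median -0.84). PSAT1, the transaminase of the pathway, had 21.8, 22.1 and 22.6 CPM in the combination at day 6, against 738, 749.7 and 729 CPM in DMSO. The log2 fold change of -5.06 ± 0.24 (adjusted p = 8.52e-11) stood beside one of -1.11 ± 0.20 under VTP-50469 alone (adjusted p = 0.000426). PHGDH, which commits glucose carbon to serine, had 60.7, 49 and 32 CPM in the combination at day 6, against 644, 631 and 665 CPM in DMSO (-3.78 ± 0.22, adjusted p = 6.45e-10). With VTP-50469 alone at day 6 PHGDH, at 392, 559.7 and 422 CPM, missed the threshold (-0.50 ± 0.19, adjusted p = 0.0562). ALDH1L2 had 8.51, 7.33 and 10.3 CPM in the combination at day 6, against 321, 325 and 300.1 CPM in DMSO, with no overlap (-5.18 ± 0.22, adjusted p = 7.79e-12). The mitochondrial genes SHMT2, which turns serine into glycine, and MTHFD2, which carries the released carbon unit on, were lower by less, at -2.21 ± 0.09 and -1.36 ± 0.08, and PSPH, the phosphatase that ends serine synthesis, stood at -2.40 ± 0.14. Of the exon bases of MTHFD2, 33.2% lie opposite another gene's exons.

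Among the other enzymes, CTH, which makes cysteine from cystathionine, had 7.62, 11.7 and 6.54 CPM with VTP-50469 at day 6, against 57.1, 60.8 and 53.9 CPM in DMSO. That was the largest fall of any member under VTP-50469 alone at day 6 (-2.74 ± 0.38, adjusted p = 3.31e-05). In the combination at day 6 CTH had 5.63, 6.62 and 1.39 CPM, which overlapped VTP-50469 (combination over VTP-50469 -0.92 ± 0.43, adjusted p = 0.106). ASNS, the asparagine synthetase gene and a classic ATF4 target, had low counts, with 2.29, 3.66 and 1.14 CPM in the combination at day 6, against 16.2, 8.76 and 13.9 CPM in DMSO (-2.45 ± 0.34, adjusted p = 1.23e-06). Of its annotated exon bases, 44.6% are shared on the same strand with AC079781.5, which was counted at 1.41 to 4.16 CPM across OCI-AML3 groups, and reads from the shared bases cannot be told apart. The counts of ASNS in either line may therefore not give its full level. PCK2, a mitochondrial enzyme that feeds glycolytic intermediates, and the proline enzymes PYCR1 and ALDH18A1 fell in the combination at day 6 (-2.39 ± 0.12, -1.84 ± 0.19 and -1.05 ± 0.08). PYCR1 shares 14.1% of its exon bases with a gene of its own strand and 15.6% with one of the other strand.

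Amino acid transporters followed the same direction. SLC7A5, which imports leucine and other large neutral amino acids, had 89.2, 70.3 and 71.7 CPM in the combination at day 6, against 1584, 1596 and 1629 CPM in DMSO. This is the transporter with the highest level per kilobase in untreated OCI-AML3, and no treated library overlapped DMSO (-4.38 ± 0.21, adjusted p = 5.55e-11). With selumetinib alone it had 503, 281 and 269.8 CPM against 1712, 1689 and 1609 CPM in DMSO at day 3, replicate 1 being the highest of the 3 (-2.25 ± 0.19, adjusted p = 2.36e-07). SLC3A2, its partner subunit, SLC7A1, an arginine importer, SLC1A5, a glutamine importer, and SLC38A2, an importer of small neutral amino acids, were lower in the combination at day 6 by log2 fold changes of -2.39, -2.52, -1.70 and -1.39. Of the exon bases of SLC1A5, 23.8% lie opposite exons of other genes. SLC7A11 had 12.1, 10.4 and 7.77 CPM in the combination at day 6, against 97.8, 98.7 and 88 CPM in DMSO (-3.23 ± 0.15, adjusted p = 3.4e-15). With VTP-50469 it had 27.3, 32 and 29.2 CPM (-1.68 ± 0.14, adjusted p = 3.03e-10). SLC6A9 had 1.24, 0.643 and 1.33 CPM in the combination at day 6, against 44.6, 40.3 and 43.1 CPM in DMSO (-5.31 ± 0.37, adjusted p = 5.71e-10). SLC1A4, which carries serine and alanine, changed least, with 312, 311 and 311 CPM in the combination at day 6, against 393, 391 and 392 CPM in DMSO (-0.33 ± 0.08, adjusted p = 0.00143). It was lower still with VTP-50469 alone, at 215, 253 and 235 CPM (-0.74 ± 0.08, adjusted p = 3.77e-08). Both translation genes, XPOT (tRNA export) and EIF4EBP1, fell, with -1.97 ± 0.10 and -2.08 ± 0.13 in the combination at day 6.

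The genes of the endoplasmic reticulum arm had, in OCI-AML3, a median log2 fold change of -0.60 over 5 in the combination at day 6, of which 3 were lower. HSPA5, the main chaperone of that compartment, had 343, 359 and 349 CPM in the combination at day 6, against 541, 554 and 495 CPM in DMSO (-0.60 ± 0.09, adjusted p = 8.82e-07). With VTP-50469 alone it had 585, 602 and 598 CPM, above every DMSO library yet short of the threshold (0.17 ± 0.08, adjusted p = 0.135, and 0.16, adjusted p = 0.00718 in a fit of those groups alone). HERPUD1, which takes part in the disposal of misfolded protein, had 66.5, 83.2 and 85.5 CPM in the combination at day 6, against 263, 271 and 256 CPM in DMSO (-1.75 ± 0.18, adjusted p = 3.23e-07). With VTP-50469 alone it had 89.7, 108 and 83.4 CPM, which overlapped the combination (combination over VTP-50469 -0.25 ± 0.18, adjusted p = 0.273). XBP1, the transcription factor of this arm, had 112, 112 and 126 CPM in the combination at day 6, against 431, 439 and 441 CPM in DMSO (-1.91 ± 0.11, adjusted p = 3.85e-13). SDF2L1 was the 1 member that rose with VTP-50469 at day 6, at 29, 32.7 and 28.8 CPM against 19.5, 16.2 and 23.3 CPM in DMSO (0.61 ± 0.15, adjusted p = 0.00182). DNAJB9, a co-chaperone of HSPA5, passed the threshold in none of the OCI-AML3 comparisons with DMSO, its log2 fold changes lying between -0.35 and 0.11.

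After 3 days of VTP-50469 few members of OCI-AML3 had moved. TRIB3 had 294, 137 and 308 CPM with VTP-50469 at day 3, against 403, 370.1 and 373 CPM in DMSO. Replicates 1 and 3 lay below DMSO by a modest margin and replicate 2 far below (-0.63 ± 0.24, adjusted p = 0.128). HERPUD1 was the 1 member called, with 208, 116 and 197 CPM with VTP-50469 at day 3, against 285, 245 and 277 CPM in DMSO (-0.63 ± 0.17, adjusted p = 0.023). Its call was lost without DMSO replicate 1 (adjusted p = 0.0956) or replicate 3 (adjusted p = 0.0841), and without VTP-50469 replicate 2 the log2 fold change was -0.41 (adjusted p = 0.022). Without that replicate the median over members was -0.03 and 1 member was called lower. Leaving out selumetinib replicate 1 gave 33 members lower under selumetinib and a median of -1.39. Without VTP-50469 day 6 replicate 2, 30 members were lower and 1 higher with VTP-50469 at day 6 (median -0.86).

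Adding selumetinib to VTP-50469 lowered most members further. At day 6 the combination was lower than VTP-50469 alone in 31 of 36 members and higher in 1 (median -1.43), against 24.6% and 16.7% of all genes. At day 3 it was lower in 35 and higher in 0 (0 also at an unadjusted p under 0.05 and by DESeq2; median -2.14), against 24% and 18.2%. Among members of at least 5 CPM, STC2 fell most at both days. It had 1.44, 0.514 and 0.758 CPM in the combination at day 6, against 17.5, 41.5 and 22.3 CPM with VTP-50469 (-4.89 ± 0.66, adjusted p = 2.78e-05). At the earlier day it had 4.86, 3.86 and 5.06 CPM in the combination at day 3, against 182, 86.8 and 168 CPM with VTP-50469 (-4.98 ± 0.48, adjusted p = 5.34e-07). Without the replicate of VTP-50469 that stood apart, the combination was lower in 30 members at day 6 and in 36 at day 3. At day 6 SLC6A9 (-3.98 ± 0.38), PSAT1 (-3.95 ± 0.24) and ALDH1L2 (-3.63 ± 0.22) came next, and at day 3 DDIT4 (-4.23 ± 0.32), SLC7A5 (-3.87 ± 0.20) and CHAC1 (-3.83 ± 0.30). SLC1A4 was the 1 member that rose, with 312, 311 and 311 CPM in the combination at day 6, against 215, 253 and 235 CPM with VTP-50469 (0.41 ± 0.08, adjusted p = 0.000221). ASNS was lower at day 6 (-1.17 ± 0.35, adjusted p = 0.00903), a call lost in 1 of 6 fits that left out 1 library (adjusted p = 0.0588), without combination replicate 3, and in a fit of the compared groups alone (-1.12, adjusted p = 0.0656). As for cell identity, summed CPM of the myeloid markers was 2702 ± 173 in the combination at day 6, 1415 ± 4.07 with VTP-50469 and 1519 ± 19.4 in DMSO. That of 6 epithelial and stromal markers was 5.97 ± 2.5 in the combination, 63.3 ± 13 with VTP-50469 and 0.95 ± 0.324 in DMSO. Of these 6, COL1A2 reached 55.5 CPM in an OCI-AML3 group and the others at most 3.87 CPM, so this sum rests largely on a single collagen gene. Their part in the members' changes was not tested.

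In NOMO1 the members moved in both directions, and the DMSO groups of day 6 and day 3 themselves differed. Besides the mitochondrial share given above, the DMSO libraries of day 3 had 17749 to 18672 genes detected, against 20485 to 20584 at day 6. Time and any other difference between these groups cannot be told apart. Between DMSO at day 6 and DMSO at day 3, 13 members were lower and 10 higher (median -0.46), against 22.3% and 28.8% of all 16561 genes tested. ATF4 had 236, 285 and 268 CPM in DMSO at day 6, against 704, 822 and 667 CPM in DMSO at day 3. It was lower in every day 6 library (-1.47 ± 0.23, adjusted p = 4.99e-05). DDIT3 followed, with 4.51, 7.25 and 7.61 CPM in DMSO at day 6, against 21.6, 23.8 and 23.4 CPM in DMSO at day 3 (-1.82 ± 0.25, adjusted p = 2.2e-06). ASNS (-1.78 ± 0.36, adjusted p = 0.000158), CHAC1 (-1.57 ± 0.40, adjusted p = 0.00353) and PHGDH (-1.34 ± 0.31, adjusted p = 0.00184) fell as well. DNAJB9 (1.17 ± 0.22, adjusted p = 5.4e-05), ALDH18A1 (0.89 ± 0.11, adjusted p = 7.95e-08), SLC7A1 (0.66 ± 0.15, adjusted p = 0.00107) and HSPA5 (0.66 ± 0.10, adjusted p = 1.85e-06) rose. DDIT4 also passed (1.44 ± 0.51, adjusted p = 0.028), a call lost in 4 of 6 fits that left out 1 library (adjusted p = 0.0591 to 0.113), those without any 1 DMSO day 3 library or without DMSO day 6 replicate 2. For day 3 in NOMO1, counts that use every library are therefore given against both DMSO groups.

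With VTP-50469 at day 6, 4 of 5 genes of the unfolded protein response and the cystine importer rose in NOMO1. In all, 10 of 36 members were higher and 4 lower (median 0.10), against 23.7% and 25.1% of all genes, so the counts of members stand close to the background in the upward direction. SLC7A11 had 25.8, 24.8 and 29.5 CPM with VTP-50469 at day 6, against 3.68, 4.14 and 2.84 CPM in DMSO. Every treated library lay above every DMSO library (2.90 ± 0.37, adjusted p = 5.1e-06). HSPA5 had 1480, 1494 and 1588 CPM with VTP-50469 at day 6, against 649.5, 620.4 and 642 CPM in DMSO (1.26 ± 0.10, adjusted p = 3.15e-11). It was the member of highest level per kilobase in this group, at 389 ± 15 CPM per kb. DNAJB9 (1.26 ± 0.19, adjusted p = 4.36e-06), HERPUD1 (1.19 ± 0.19, adjusted p = 3.32e-05) and SDF2L1 (0.35 ± 0.11, adjusted p = 0.0115) rose too, and XBP1 stood at 0.11 ± 0.08, adjusted p = 0.259. DDIT3, with 13.1, 13.8 and 15.6 CPM with VTP-50469 at day 6, against 4.51, 7.25 and 7.61 CPM in DMSO, was higher in all 3 treated libraries (1.12 ± 0.25, adjusted p = 0.000666). SESN2 (1.09 ± 0.24) and VLDLR (0.81 ± 0.15) rose. CHAC1 rose too (1.17 ± 0.40, adjusted p = 0.0227), but its call was lost in 3 of 6 fits that left out 1 library (adjusted p = 0.0582 to 0.108), those without DMSO replicate 3 or VTP-50469 replicate 1 or 3. ATF4 itself had 332, 341 and 331 CPM with VTP-50469 at day 6, against 236, 285 and 268 CPM in DMSO, above DMSO in every library but short of the threshold (0.35 ± 0.22, adjusted p = 0.22), which it passed in an edgeR fit of those groups alone (0.36, adjusted p = 1.33e-05). TRIB3 stood at 0.11 ± 0.30, adjusted p = 0.798, with overlapping groups.

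Of the 4 members lower with VTP-50469 at day 6 in NOMO1, 3 were enzymes. ALDH18A1 had 50.1, 43.6 and 47.9 CPM with VTP-50469 at day 6, against 96.1, 98.8 and 105 CPM in DMSO (-1.08 ± 0.11, adjusted p = 2.69e-09). PYCR1, which ends the same route from glutamate to proline, had 30.6, 33.8 and 34.5 CPM with VTP-50469 at day 6, against 55.6, 51.1 and 57.6 CPM in DMSO (-0.73 ± 0.08, adjusted p = 3.66e-08). No library of either gene overlapped. CTH fell at a low level, with 3.08, 1.92 and 1.95 CPM with VTP-50469 at day 6, against 4.25, 4.77 and 5.03 CPM in DMSO (-1.01 ± 0.30, adjusted p = 0.00608). DDIT4 had 15.5, 17.7 and 19.9 CPM with VTP-50469 at day 6, against 40.3, 62.2 and 29.3 CPM in DMSO. It was called (-1.32 ± 0.50, adjusted p = 0.0413) but lost that call in 5 of 6 fits that left out 1 library (adjusted p = 0.0629 to 0.165), all but that without DMSO replicate 3. Of the serine and glycine genes PHGDH was nearest to the threshold, at -0.76 ± 0.31, adjusted p = 0.0544.

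At day 3 of VTP-50469 in NOMO1, 11 members were higher and 4 lower than in DMSO at day 3 (median 0.40), against 29.7% and 22.7% of all genes. SLC7A11 had 41.4, 12.3 and 15.2 CPM with VTP-50469 at day 3, against 4.64, 5.89 and 4.13 CPM in DMSO, replicate 1 being far above its partners, yet all 3 above DMSO (2.22 ± 0.37, adjusted p = 7.58e-05). HSPA5 had 1008, 1061 and 1166 CPM with VTP-50469 at day 3, against 406, 417 and 388 CPM in DMSO, with replicates close together (1.42 ± 0.10, adjusted p = 2.94e-12). HERPUD1 (1.41 ± 0.19, adjusted p = 5.71e-06) and DNAJB9 (1.42 ± 0.22, adjusted p = 3.46e-06) rose likewise. TRIB3 had 279, 98.6 and 101 CPM with VTP-50469 at day 3, against 119, 122 and 105 CPM in DMSO, replicate 1 standing above every DMSO library and replicates 2 and 3 below every one (0.47 ± 0.30, adjusted p = 0.214). STC2 showed the same split, with 94.1, 17.5 and 17.5 CPM with VTP-50469 at day 3, against 19.1, 23.3 and 24.2 CPM in DMSO (0.95 ± 0.53, adjusted p = 0.151). ATF4, at 712, 305 and 356 CPM with VTP-50469 against 704, 822 and 667 CPM in DMSO, was called lower (-0.68 ± 0.22, adjusted p = 0.0182). So were DDIT3 (-0.83 ± 0.24, adjusted p = 0.0058), EIF4EBP1 (-0.71 ± 0.18, adjusted p = 0.00403) and ASNS (-1.12 ± 0.35, adjusted p = 0.00918).

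These day 3 falls rest on which libraries are used. Without VTP-50469 replicate 1, 11 members were lower and 11 higher (median -0.09), the share of all genes called in that fit not being given. ATF4, DDIT3 and EIF4EBP1 then stood at -1.14, -1.34 and -1.10. Leaving out DMSO replicate 2 gave 2 members lower, and leaving out VTP-50469 replicate 2 also gave 2. The call of ATF4 was lost without VTP-50469 replicate 2 (-0.43, adjusted p = 0.096), without VTP-50469 replicate 3 (adjusted p = 0.0959) and without DMSO replicate 2 (adjusted p = 0.0744). That of ASNS was lost without DMSO replicate 2 (adjusted p = 0.091) and without VTP-50469 replicate 2 (adjusted p = 0.057). Against DMSO at day 6 the direction of those 4 turned. ATF4 (0.80 ± 0.22, adjusted p = 0.0145) and DDIT3 (0.99 ± 0.25, adjusted p = 0.00499) were then called higher, and EIF4EBP1 (0.24 ± 0.18, adjusted p = 0.377) and ASNS (0.66 ± 0.37, adjusted p = 0.193) were not called. On that control 19 members were higher and 1 lower (median 0.63), against 12.7% and 14.4% of all genes. Higher there without a call against DMSO at day 3 were CHAC1 (2.03 ± 0.40, adjusted p = 0.00101), SESN2 (1.28 ± 0.24, adjusted p = 0.000504), PCK2 (1.25 ± 0.24, adjusted p = 0.000907) and TRIB3 (0.92 ± 0.30, adjusted p = 0.0362). So were ALDH1L2 (1.09), SLC7A5 (1.02), PSAT1 (1.00), SLC1A5 (0.47), SDF2L1 (0.43) and XBP1 (0.26). All values on this control include VTP-50469 replicate 1, and no fit without it was made there. ALDH1L2 had 12.7, 4.17 and 3.55 CPM against 3.12, 3.94 and 2.46 CPM in DMSO at day 6. PSAT1 had 170, 54.2 and 63.2 CPM against 36.5, 62.7 and 44.2 CPM. For both, replicates 2 and 3 overlapped DMSO. Every TRIB3 library lay above DMSO, at 279, 98.6 and 101 CPM against 81.7, 91.2 and 79.8 CPM. DNAJB9 (0.25 ± 0.20, adjusted p = 0.389), XPOT (0.16 ± 0.12, adjusted p = 0.374) and MTHFD2 (-0.02 ± 0.13, adjusted p = 0.941) were no longer called, and ALDH18A1 was called lower (-0.35 ± 0.11, adjusted p = 0.0125) where it had been higher against DMSO at day 3 (0.53 ± 0.11, adjusted p = 0.000137). SLC7A11 (2.68 ± 0.37, adjusted p = 4.4e-05), HSPA5 (0.76 ± 0.10, adjusted p = 8.81e-07) and HERPUD1 (1.21 ± 0.19, adjusted p = 9.32e-05) were higher on either control.

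Selumetinib alone lowered 6 of 10 stress factors and feedback genes and 5 of 6 serine and one-carbon genes of NOMO1, measured against DMSO at day 3. Of 5 genes of the unfolded protein response 3 rose and 2 fell, XBP1 (-0.77 ± 0.08, adjusted p = 6.83e-09) and SDF2L1 (-1.16 ± 0.12, adjusted p = 2.6e-09). The counts were smaller against DMSO at day 6, with 3 of 10 stress factors and feedback genes and 1 of 6 serine and one-carbon genes lower. On that control 3 of the 5 genes of the unfolded protein response were lower, XBP1 (-0.60 ± 0.08, adjusted p = 1.99e-06) and SDF2L1 (-0.70 ± 0.12, adjusted p = 3.57e-05) again among them. Against DMSO at day 3, 20 of 36 members were lower and 6 higher (median -0.77), against 25.2% and 28.9% of all genes. TRIB3 had 28.8, 21.3 and 30.6 CPM with selumetinib, against 119, 122 and 105 CPM in DMSO at day 3 (-2.09 ± 0.32, adjusted p = 5.38e-05). SLC7A5 had 45.4, 43.9 and 97.4 CPM with selumetinib, against 219, 281 and 236 CPM in DMSO at day 3 (-1.98 ± 0.35, adjusted p = 0.000186). CHAC1 (-2.47 ± 0.44, adjusted p = 0.000124) and STC2 (-2.76 ± 0.63, adjusted p = 0.00162) fell too. ASNS, at 0.464, 0.243 and 0.385 CPM with selumetinib against 4.28, 6.54 and 3.11 CPM in DMSO at day 3, was counted at under 1 CPM in every selumetinib library (-3.62 ± 0.42, adjusted p = 3.84e-08). Measured against DMSO at day 6, 15 members were lower and 2 higher (median -0.49), against 19% and 13.1% of all genes. There TRIB3 (-1.64 ± 0.32, adjusted p = 0.00108), SLC7A5 (-1.48 ± 0.34, adjusted p = 0.00395), STC2 (-2.39 ± 0.63, adjusted p = 0.00836) and ASNS (-1.84 ± 0.43, adjusted p = 0.00157) were lower as well. In contrast ATF4 (-0.41 ± 0.22, adjusted p = 0.192), DDIT3 (-0.13 ± 0.26, adjusted p = 0.758) and CHAC1 (-0.90 ± 0.45, adjusted p = 0.147) lost their calls. So did the serine and one-carbon genes PHGDH (-0.56 ± 0.31, adjusted p = 0.197), PSAT1 (-0.92 ± 0.35, adjusted p = 0.057), PSPH (-0.30 ± 0.20, adjusted p = 0.283), SHMT2 (-0.42 ± 0.17, adjusted p = 0.0753) and ALDH1L2 (-0.41 ± 0.40, adjusted p = 0.475), while MTHFD2 was called lower (-0.64 ± 0.13, adjusted p = 0.000735). ATF4 and DDIT3 were lower against DMSO at day 3 by log2 fold changes of -1.88 ± 0.23 and -1.95 ± 0.26. Without selumetinib replicate 3, the falls of ATF4, DDIT3, TRIB3, CHAC1, STC2, SLC7A5, ASNS and XBP1 against DMSO at day 3 kept their calls.

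Of the 6 rises under selumetinib, several depended on 1 library or on the choice of DMSO group. DNAJB9 (0.99 ± 0.22, adjusted p = 0.000436), SLC7A11 (1.07 ± 0.37, adjusted p = 0.0238) and HERPUD1 (0.57 ± 0.19, adjusted p = 0.0177) were called higher against DMSO at day 3. So were ALDH18A1 (0.35 ± 0.11, adjusted p = 0.00708), SLC38A2 (0.31 ± 0.06, adjusted p = 0.000125) and HSPA5 (0.27 ± 0.10, adjusted p = 0.0175). HSPA5 had 461, 418 and 584 CPM with selumetinib, against 406, 417 and 388 CPM in DMSO at day 3, with replicate 3 highest, and without it the log2 fold change was 0.14 (adjusted p = 0.209). Leaving out selumetinib replicate 3 or DMSO replicate 3 left 3 members higher in either case. SLC7A11 lost its call in 3 of 6 fits that left out 1 library (adjusted p = 0.0707 to 0.105), those without DMSO replicate 1 or 3 or selumetinib replicate 3. HERPUD1 lost it in 2 of 6 fits that left out 1 library (adjusted p = 0.0621 to 0.0835), without DMSO replicate 3 or selumetinib replicate 3, and ALDH18A1 in 1 of 6 fits that left out 1 library (adjusted p = 0.0514), without DMSO replicate 3. Against DMSO at day 6 HSPA5 (-0.39 ± 0.10, adjusted p = 0.00252), ALDH18A1 (-0.54 ± 0.11, adjusted p = 0.000278) and DNAJB9 (-0.18 ± 0.20, adjusted p = 0.548) lay on the other side of 0. HERPUD1 lost its call there (0.37 ± 0.19, adjusted p = 0.155), and SLC7A11 stood at 1.53 ± 0.38, adjusted p = 0.00511.

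The combination in NOMO1 lowered more members at day 3 than at day 6 (the difference between the days was not tested). At day 3, 25 members were lower and 6 higher (median -1.14), against 27.5% and 31.1% of all genes, and against DMSO at day 6 instead 22 were lower and 4 higher, against 24.4% and 20.9%. At day 6, 14 were lower and 9 higher (median -0.18), against 28.2% and 27.3%. Among members of at least 5 CPM, STC2 fell most at both days. It had 2.05, 1.51 and 2.65 CPM in the combination at day 6, against 15.3, 22.7 and 13.5 CPM in DMSO (-3.07 ± 0.66, adjusted p = 0.000917). The earlier levels were 0.646, 0.722 and 0.86 CPM in the combination at day 3, against 19.1, 23.3 and 24.2 CPM in DMSO (-4.89 ± 0.75, adjusted p = 4.05e-05). SLC7A5 had 41.3, 40.9 and 52.2 CPM in the combination at day 6, against 155, 181 and 184 CPM in DMSO (-1.95 ± 0.35, adjusted p = 0.000199). TRIB3 (-1.46 ± 0.32, adjusted p = 0.00101), ALDH18A1 (-1.89 ± 0.11, adjusted p = 4.57e-14) and PYCR1 (-1.66 ± 0.09, adjusted p = 5.65e-15) fell at day 6 as well. ATF4 had 317, 325 and 338 CPM in the combination at day 6, against 236, 285 and 268 CPM in DMSO, all treated libraries above DMSO but short of the threshold (0.31 ± 0.22, adjusted p = 0.257), which it passed in a fit of those groups alone (0.31, adjusted p = 9.09e-05).

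Among members of at least 5 CPM, SLC7A11 rose most in the NOMO1 combination at day 6, with 26.1, 25.7 and 33 CPM in the combination at day 6, against 3.68, 4.14 and 2.84 CPM in DMSO (2.99 ± 0.37, adjusted p = 2.72e-06). VLDLR (1.33 ± 0.15, adjusted p = 2.27e-08) and DDIT3, with 14.7, 17.5 and 15.6 CPM in the combination at day 6, against 4.51, 7.25 and 7.61 CPM in DMSO (1.30 ± 0.25, adjusted p = 0.000122), rose with no overlap. HSPA5 had 1046, 1051 and 1274 CPM in the combination at day 6, against 649.5, 620.4 and 642 CPM in DMSO (0.82 ± 0.10, adjusted p = 3.64e-08). HERPUD1 (1.09 ± 0.19, adjusted p = 7e-05), DNAJB9 (0.91 ± 0.20, adjusted p = 0.000268) and SESN2 (1.18 ± 0.24, adjusted p = 0.000339) rose too. ATF3 was called (1.18 ± 0.39, adjusted p = 0.0123) and lost its call in 2 of 6 fits that left out 1 library (adjusted p = 0.051 to 0.0527), without DMSO replicate 1 or combination replicate 3. XBP1, in contrast, was lower (-0.24 ± 0.08, adjusted p = 0.0143), a call lost without combination replicate 2 (adjusted p = 0.0602). NUPR1 was called higher at very low counts, with 1.19, 1.76 and 1.95 CPM in the combination at day 6, against 0.0433, 0.0331 and 0 CPM in DMSO. At day 3 the rises against DMSO at day 3 were those of SLC7A11 (1.64 ± 0.37, adjusted p = 0.001), DNAJB9 (1.61 ± 0.22, adjusted p = 2.67e-07) and VLDLR (1.10 ± 0.15, adjusted p = 6.74e-07). Also higher were HERPUD1 (0.81 ± 0.19, adjusted p = 0.00121), HSPA5 (0.81 ± 0.10, adjusted p = 4.15e-08) and SLC38A2 (0.48 ± 0.06, adjusted p = 2.01e-07). Against DMSO at day 6, HSPA5 (0.15 ± 0.09, adjusted p = 0.205) and DNAJB9 (0.45 ± 0.20, adjusted p = 0.0667) lost their calls.

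Against DMSO at day 3 the combination at day 3 lowered ATF4 (-1.93 ± 0.23, adjusted p = 2.27e-06), DDIT3 (-1.69 ± 0.25, adjusted p = 3.83e-06), CHAC1 (-1.71 ± 0.41, adjusted p = 0.00153) and ASNS (-3.22 ± 0.40, adjusted p = 7.99e-08). It also lowered PSAT1 (-2.59 ± 0.36, adjusted p = 1.53e-05), TRIB3 (-2.56 ± 0.33, adjusted p = 6.33e-06) and SLC7A5 (-3.16 ± 0.37, adjusted p = 2.15e-06). With DMSO at day 6 as the control ATF4 (-0.46 ± 0.22, adjusted p = 0.111) and CHAC1 (-0.15 ± 0.42, adjusted p = 0.806) lost their calls and DDIT3 stood at 0.13 ± 0.26, adjusted p = 0.719. PSAT1 (-1.74 ± 0.36, adjusted p = 0.000949), TRIB3 (-2.11 ± 0.33, adjusted p = 7.66e-05) and SLC7A5 (-2.66 ± 0.36, adjusted p = 2.23e-05) were lower on either control, and so was XBP1 (-0.62 ± 0.08, adjusted p = 1.9e-07 and -0.45 ± 0.08, adjusted p = 4.11e-05).

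Set against VTP-50469 alone, the NOMO1 combination was lower in 29 members at day 3 and higher in 1 (median -1.02), against 19.2% and 15.9% of all genes. At day 6 it was lower in 12 and higher in 1 (median -0.33), against 15.2% and 12.4%. At the later day STC2 fell most, with 2.05, 1.51 and 2.65 CPM in the combination at day 6, against 18, 12.2 and 15.7 CPM with VTP-50469 (-2.90 ± 0.66, adjusted p = 0.00399). Next came SLC7A5 (-1.93 ± 0.35, adjusted p = 0.000719), TRIB3 (-1.57 ± 0.32, adjusted p = 0.00168) and PYCR1 (-0.92 ± 0.09, adjusted p = 6.92e-09). HSPA5 (-0.44 ± 0.09, adjusted p = 0.000935) and XBP1 (-0.35 ± 0.08, adjusted p = 0.00162) were lower too. No call was made for ATF4 (-0.03 ± 0.22, adjusted p = 0.938), DDIT3 (0.17 ± 0.24, adjusted p = 0.662), CHAC1 (-0.31 ± 0.39, adjusted p = 0.619), ASNS (-0.00 ± 0.37, adjusted p = 1) and SLC7A11 (0.08 ± 0.32, adjusted p = 0.888). VLDLR was the 1 member higher at both days. Its day 6 call (0.52 ± 0.15, adjusted p = 0.00939) was lost without VTP-50469 replicate 3 (adjusted p = 0.0835). Its day 3 call (0.43 ± 0.15, adjusted p = 0.0243) was lost in 5 of 6 fits that left out 1 library (adjusted p = 0.0511 to 0.133), all but that without VTP-50469 replicate 1.

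At day 3 the largest falls against VTP-50469 were those of STC2 (-5.84 ± 0.75), SLC7A5 (-3.67 ± 0.37), TRIB3 (-3.03 ± 0.33) and DDIT4 (-2.90 ± 0.58). ATF4 (-1.26 ± 0.23), CHAC1 (-2.18 ± 0.41), DDIT3 (-0.86 ± 0.25), ASNS (-2.10 ± 0.40), HSPA5 (-0.61 ± 0.10) and XBP1 (-0.71 ± 0.08) were lower as well. Without VTP-50469 replicate 1, whose levels were high, 27 members were lower and 2 higher (median -0.74), with DDIT4 at -1.72, CHAC1 at -1.28, ATF4 at -0.79 and DDIT3 no longer called (-0.35, adjusted p = 0.146). SLC7A11 missed the threshold (-0.58 ± 0.33, adjusted p = 0.198) and passed it without VTP-50469 replicate 2 (-0.89, adjusted p = 0.0289). Summed CPM of the myeloid markers was 19530 ± 132 in the NOMO1 combination at day 3, 10600 ± 2630 with VTP-50469, 9774 ± 375 with selumetinib and 4682 ± 117 in DMSO. At day 6 it was 15720 ± 457 in the combination, 11370 ± 426 with VTP-50469 and 7501 ± 223 in DMSO. Summed CPM of the epithelial and stromal markers was 263 ± 10.8 in the combination at day 3, 97.8 ± 8.5 with VTP-50469, 152 ± 9.13 with selumetinib and 61.4 ± 3.81 in DMSO. These sums rest largely on few genes. Across NOMO1 groups MPO reached 13240 CPM and LYZ 4810 CPM, and the other myeloid markers at most 802 CPM. COL1A1 reached 241.5 CPM, and the other epithelial and stromal markers at most 31.5 CPM. The part of these in the members' changes was not tested. Of 6 T and NK cell markers, NKG7 lay between 108 and 179 CPM and CD3D between 4.56 and 37.7 CPM in NOMO1 groups, while CD2 and CD3G reached at most 0.155 and 0.668 CPM.

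The lines differed in how these genes answered the drugs, tested as the difference of the log2 fold changes of the lines in 1 fit of all 42 libraries. For the combination against DMSO at day 6, the effect was higher in NOMO1 for 32 of 36 members and lower for 1 (median difference 2.53), against 18.6% and 16.3% of all 18707 genes. For VTP-50469 it was higher for 26 and lower for 1 (median 1.11), against 16.6% and 16.8%. For the combination against VTP-50469 at day 6 it was higher for 24 and lower for 1 (median 1.22), against 11.4% and 9.18%. The largest difference among members of at least 5 CPM was that of SLC7A11, at 2.99 in NOMO1 and -3.23 in OCI-AML3 for the combination at day 6 (difference 6.27 ± 0.41, adjusted p = 2.14e-13). For VTP-50469 it stood at 2.90 in NOMO1 and -1.68 in OCI-AML3 (difference 4.65 ± 0.40, adjusted p = 5.81e-11). Its level in the combination at day 6 was 26.1, 25.7 and 33 CPM in NOMO1 and 12.1, 10.4 and 7.77 CPM in OCI-AML3. With VTP-50469 at day 6 it was 25.8, 24.8 and 29.5 CPM in NOMO1 and 27.3, 32 and 29.2 CPM in OCI-AML3.

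HERPUD1 and HSPA5 also differed between the lines. HERPUD1 differed by 2.75 ± 0.27, adjusted p = 9.72e-10, with VTP-50469 and HSPA5 by 1.16 ± 0.13, adjusted p = 2.25e-09. DDIT3 rose in NOMO1 and fell in OCI-AML3 under both (difference 2.85 ± 0.41, adjusted p = 1.26e-06 for VTP-50469 and 2.98 ± 0.42, adjusted p = 6.2e-07 for the combination). ATF4 differed by 2.42 ± 0.26, adjusted p = 6.47e-09, for the combination, and TRIB3 by 2.82 ± 0.42, adjusted p = 3.15e-06, although TRIB3 fell in both lines. STC2 likewise fell in both lines (-3.07 in NOMO1 and -7.53 in OCI-AML3). ALDH18A1 was the 1 member whose effect was lower in NOMO1 in both comparisons with DMSO, at -0.78 ± 0.14, adjusted p = 1.7e-05, for the combination. For the combination against VTP-50469, DDIT3 (0.13 ± 0.41, adjusted p = 0.903) and TRIB3 (0.16 ± 0.42, adjusted p = 0.869) showed no call, and SLC1A4 was the 1 member lower in NOMO1 (-0.78 ± 0.13, adjusted p = 1.7e-05).

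**Figure D4:**
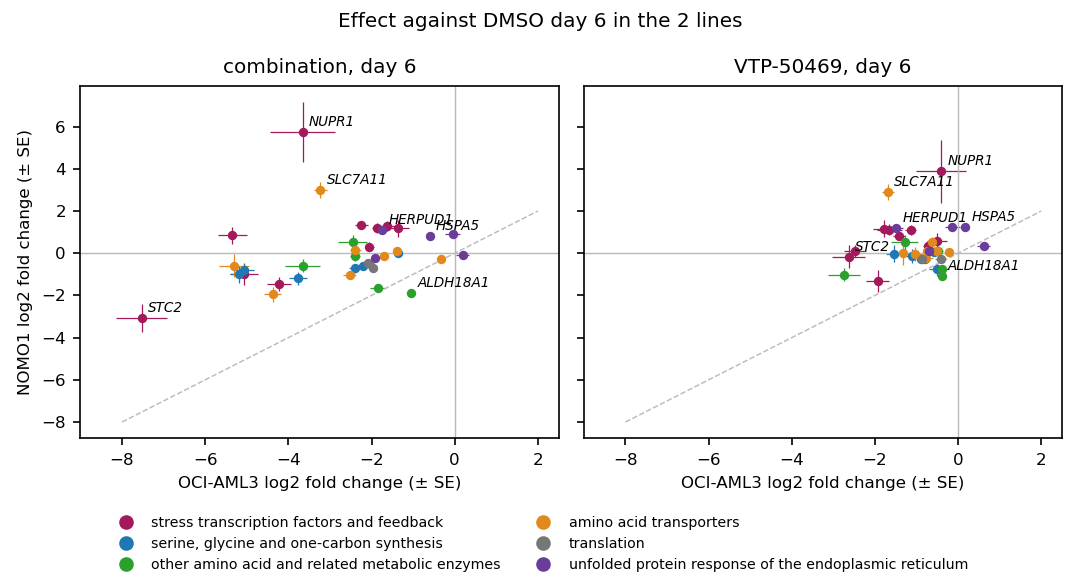
Each dot is 1 member, placed by its log2 fold change against DMSO at day 6 in NOMO1 (y axis) and OCI-AML3 (x axis), with SE bars and colours by role, for the combination (left) and VTP-50469 (right); the dashed line marks equal change. Most dots lie above that line, SLC7A11 at 2.99 in NOMO1 and -3.23 in OCI-AML3 for the combination, and ALDH18A1 lies below it.

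Other genes of these pathways, from 4 lists outside the 36, moved in part with the members. Of 18 cytosolic aminoacyl-tRNA synthetases, which load amino acids onto tRNA and many of which are ATF4 targets, 18 were lower in the OCI-AML3 combination at day 6 (median -1.80), 17 at day 3, 15 with selumetinib (1 higher) and 16 with VTP-50469 at day 6, beside the percentages of all genes given above. YARS (-1.99 ± 0.09, adjusted p = 1.52e-16) and VARS (-1.61 ± 0.08, adjusted p = 6.41e-16) had the smallest adjusted p. VTP-50469 at day 3, when few members had moved, had 5 of these genes lower, with a median of -0.19, against 4.42% of all genes. In the NOMO1 combination at day 6, 9 were lower and 1 higher, against 28.2% and 27.3% of all genes. With VTP-50469 at day 6 in NOMO1, 8 were lower and 2 higher, against 25.1% and 23.7%. Of 15 kinases and regulators of the integrated stress response, 8 were lower and 3 higher in the OCI-AML3 combination at day 6. This list is not confined to steps above ATF4, since it also holds CEBPB, CEBPG, ATF5 and PPP1R15A. Of all genes, 26.5% were lower and 23.1% higher there. In the NOMO1 combination at day 6, 7 of the 15 were lower and 6 higher, against 28.2% and 27.3% of all genes. CEBPB, a transcription factor that pairs with ATF4, was higher with VTP-50469 at day 6 in NOMO1 (1.95 ± 0.13, adjusted p = 4.53e-11) and lower in OCI-AML3 (-1.65 ± 0.14, adjusted p = 3.47e-08).

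With VTP-50469 at day 6 in NOMO1, 13 of 20 chaperones and degradation factors of the endoplasmic reticulum were higher and 1 lower (median 0.54). Over all genes, 23.7% were higher and 25.1% lower. At day 3, 12 of the 20 were higher and 1 lower, against 29.7% and 22.7% of all genes. HYOU1 (2.04 ± 0.08, adjusted p = 1.04e-16) and PDIA4 (1.17 ± 0.10, adjusted p = 2.66e-10) had the smallest adjusted p there. Set against DMSO at day 6, the day 3 libraries had 6 higher and 2 lower, against 12.7% and 14.4% of all genes. Neither HYOU1 (0.19 ± 0.08, adjusted p = 0.0786) nor PDIA4 (0.18 ± 0.10, adjusted p = 0.187) was called on that control. Between the NOMO1 DMSO groups 13 of the 20 were higher and 3 lower at day 6, against 28.8% and 22.3% of all genes. HYOU1 was higher there by 1.85 ± 0.08, adjusted p = 1.05e-15, beside its rise with VTP-50469 at day 3. In OCI-AML3, 8 of the 20 were higher and 5 lower with VTP-50469 at day 6, against 18.8% and 16% of all genes. CALR, a calcium-binding chaperone, stood there at 1.05 ± 0.07, adjusted p = 5.62e-13. In the combination at day 6, 3 were higher and 11 lower, against 23.1% and 26.5% of all genes. Of 9 NRF2 and glutathione genes, a pathway that also induces SLC7A11, 5 were higher with VTP-50469 at day 6 in NOMO1, against 23.7% of all genes. In OCI-AML3, 7 of the 9 were higher, against 18.8% of all genes, NQO1 having the smallest adjusted p (2.44 ± 0.18, adjusted p = 1.16e-11). The part of this pathway in the changes of SLC7A11 was not tested.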

How the data were processed

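Polyadenylated RNA of 42 libraries was sequenced, and the authors deposited whole-number read counts per gene, with gene identifiers and symbols. Per the submitters' processing notes, the tools were FastQC 0.11.9, MultiQC 1.14, STAR 2.11a, featureCounts, Subread 2.0.6 and DESeq2 1.44.0, with build hg38. Of 58870 rows, 1 with a missing value was left out, and 3 columns were not used. From these counts, edgeR 4.0.16 in R 4.3.3 (limma 3.58.1) fitted the 21 libraries of a line, or all 42 for comparisons of the lines, with 1 mean per group, filterByExpr, TMM scaling and robust quasi-likelihood F tests, with Benjamini-Hochberg adjustment over all genes tested and a threshold of 0.05. SE is the log2 fold change over the square root of F. The code was tested on simulated data.

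The text names, per comparison, up to 4 called members with the largest rise and fall and at least 5 CPM in either group, plus 8 members followed throughout; a few others are named by role or because a count turned on them. Members and lists were chosen with earlier results of these data known. Same-numbered libraries did not deviate together, so no pairing was used. Exon overlaps came from GENCODE 29, matched by identifier. Alternatives were DESeq2 1.42.0, other size factors, no filter on low counts, a replicate block, a fit of the compared groups alone, mitochondrial genes left out, DMSO at day 6 as the control, and each library left out in turn. Totals of 15264862 to 29168628 counts set the precision of low genes.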

Additional observations from a re-analysis of the deposited data

Results flagged for a closer look

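The following members changed differently in the lines, by a test of the difference of log2 fold changes (NOMO1 minus OCI-AML3, edgeR). With VTP-50469 at day 6, the differences were 4.65 for SLC7A11, 3.02 for CHAC1, 2.85 for DDIT3, 2.75 for HERPUD1 and -0.62 for ALDH18A1. In the combination at day 6 against DMSO, they were 6.27 for SLC7A11, 6.26 for CHAC1, 4.76 for SLC6A9, 4.51 for STC2 and -0.78 for ALDH18A1. In the combination against VTP-50469 at day 6, they were 3.46 for DDIT4, 3.40 for SLC6A9, 3.27 for PSAT1, 3.24 for CHAC1 and -0.78 for SLC1A4. Groups of 3 libraries were too small for a test of single outlying libraries.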

How the results depend on the processing

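Of 2994 values of named members under an alternative, 2918 kept their direction and their side of the threshold, 53 lost the call, 15 gained one and 8 turned direction. All of those that turned did so in NOMO1 with DMSO at day 6 as the control of day 3 treatments: DDIT3 0.99, EIF4EBP1 0.24, ATF4 0.80 and ASNS 0.66 with VTP-50469, DNAJB9 -0.18, ALDH18A1 -0.54 and HSPA5 -0.39 with selumetinib, and DDIT3 0.13 in the combination. With that control VTP-50469 at day 3 had 19 members higher and 1 lower, and selumetinib 2 higher. A fit of the compared groups alone gave 0 members lower with VTP-50469 at day 3 and 2 higher at day 6 in OCI-AML3, 10 lower with VTP-50469 at day 6 in NOMO1, and 4 higher and 19 lower in the NOMO1 combination against VTP-50469 at day 6. It also ended the calls of HERPUD1 with VTP-50469 at day 3 (-0.63, adjusted p = 0.162) and ASNS in the combination against VTP-50469 at day 6 (-1.12, adjusted p = 0.0656) in OCI-AML3. In NOMO1 it ended those of ATF4 with VTP-50469 (-0.72, adjusted p = 0.0899) and of DDIT3 in the combination against it (-0.86, adjusted p = 0.084), both at day 3. It gave calls to ATF4 with VTP-50469 (0.36, adjusted p = 1.33e-05) and in the combination (0.31, adjusted p = 9.09e-05) at day 6, to CHAC1 in the combination (0.86, adjusted p = 0.000869), and to TRIB3 (-0.51, adjusted p = 1.93e-05) and XBP1 (-0.23, adjusted p = 0.00875) between the DMSO groups. HSPA5 gained one with VTP-50469 at day 6 in OCI-AML3 (0.16, adjusted p = 0.00718). With no filter on low counts the NOMO1 combination against VTP-50469 at day 6 had 2 higher. Leaving out 1 library gave 0 to 1 members lower with VTP-50469 at day 3 in OCI-AML3. In NOMO1 it gave 2 to 11 lower with VTP-50469 at day 3, 3 to 8 higher with selumetinib and 0 to 2 higher in the combination against VTP-50469 at day 3. With the replicate block, although the libraries share only a number, 9 members were higher and 4 lower with VTP-50469 at day 6 in NOMO1. The counts of members in this paragraph are given without the share of all genes called under the same setting. The cause of these shifts was not tested. Depth limits the precision of genes of few CPM such as NUPR1 and ASNS in NOMO1, and ASNS also shares exon bases with another gene.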
